A study of Ovis aries with 16 samples.

Results

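The cytosolic ribosomal proteins are the protein subunits of the ribosomes that translate messenger RNA in the cytosol. They were taken as the genes whose symbol in the platform annotation is RPL or RPS with a number and at most 1 letter, or RPLP0 to RPLP2 or RPSA, without the RPS6K kinases and without names that end in L. The rule found 63 of 9155 genes, 40 of the large subunit and 23 of the small, measured by 87 probe sets. Each gene was read from its probe set of highest mean over the 16 arrays. One of the names, RPL15P, ends in a P, which can mark a pseudogene, and it was kept because the rule takes it. Of the 63 symbols, 59 were also in a RefSeq table of sheep genes.

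Shunt lambs (n = 8) carried a vascular graft from ascending aorta to main pulmonary artery, which sends extra blood to the lung and had been placed in the fetus 9 ± 6 days before term. Control lambs (n = 8) came from sham operations. All were 3 days old, and RNA of peripheral lung was hybridized to arrays of bovine probe sets. The labels give no sex, breed or litter, and each array is counted here as a lamb of its own, without which p-values would reflect array error alone. Values are log2 signals, on which a difference of 1 is a doubling. The comparison asked whether the ribosome's genes differed between shunted and control lungs at this age.

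A ribosome is built of a large subunit, which joins amino acids, and a small subunit, which reads the message. Cells make the protein subunits in step with each other and with ribosomal RNA, and most of their messages start with a terminal oligopyrimidine tract, through which the growth kinase complex mTORC1 and the protein LARP1 control their translation. Free RPL5 and RPL11, held together by a short ribosomal RNA, can bind MDM2 and so stabilize p53. In humans, loss of 1 copy of RPS19 or of several other members causes Diamond-Blackfan anaemia.

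The arrays resembled each other, with mean correlations of 0.990 to 0.993, except control replicate 2 at 0.983. Array medians were 7.14 ± 0.01 in shunt and 7.16 ± 0.02 in control lambs (SD, n = 8 each). RNA integrity, read from how much brighter 3' than 5' probes were for actin, EF1A and GAPDH, gave 1.10 ± 0.11 in shunt and 1.07 ± 0.23 in control lambs. The tissue label was borne out by the surfactant gene SFTPC, at percentile 99.4 of the genes by signal (13.29 ± 0.13 in shunt, 13.44 ± 0.15 in control lambs). A bulk signal cannot tell fewer cells of a type from less RNA per cell. Signals are relative to all other RNA on the array, so a change shared by most RNA would not be seen.

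Ribosomal protein genes lay close together in shunt and control lungs. Of the 63 genes, 0 passed the limma test at an adjusted p under 0.05, where 8 of all 9155 genes did (0.0874%). At an unadjusted p under 0.05 it was also 0 of 63, where 14.5% of all genes had one, 6.63% higher and 7.92% lower in shunt. The smallest unadjusted limma p among the 63 was 0.0646 and the smallest adjusted p 0.371. Differences of shunt minus control ran from -0.14 (RPL37) to 0.19 (RPL39), and 61 of the 63 were under 0.1 in size. Their median size was 0.023, against 0.074 over all genes.

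A p above the threshold does not show that levels were equal, so the intervals bear on the size. The 95% interval of the difference lay inside a 1.2-fold change in either direction for 61 of 63 members, a bound chosen after the values were seen, and for 62.1% of all genes. Most members are very bright, and of 58 other genes with a mean signal of 13 or more 91.4% had such an interval, with a median SE of 0.046, against 0.044 for the members and 0.073 for all genes. Array signals near the top of the scale can understate a fold, and the part of this in the members' small differences was not tested. The exceptions were RPL39 (-0.06 to 0.44) and RPL37 (-0.42 to 0.13), whose lambs were spread more widely. The count was also 61 in each of the 16 fits that left out 1 array.

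**Figure D1:**
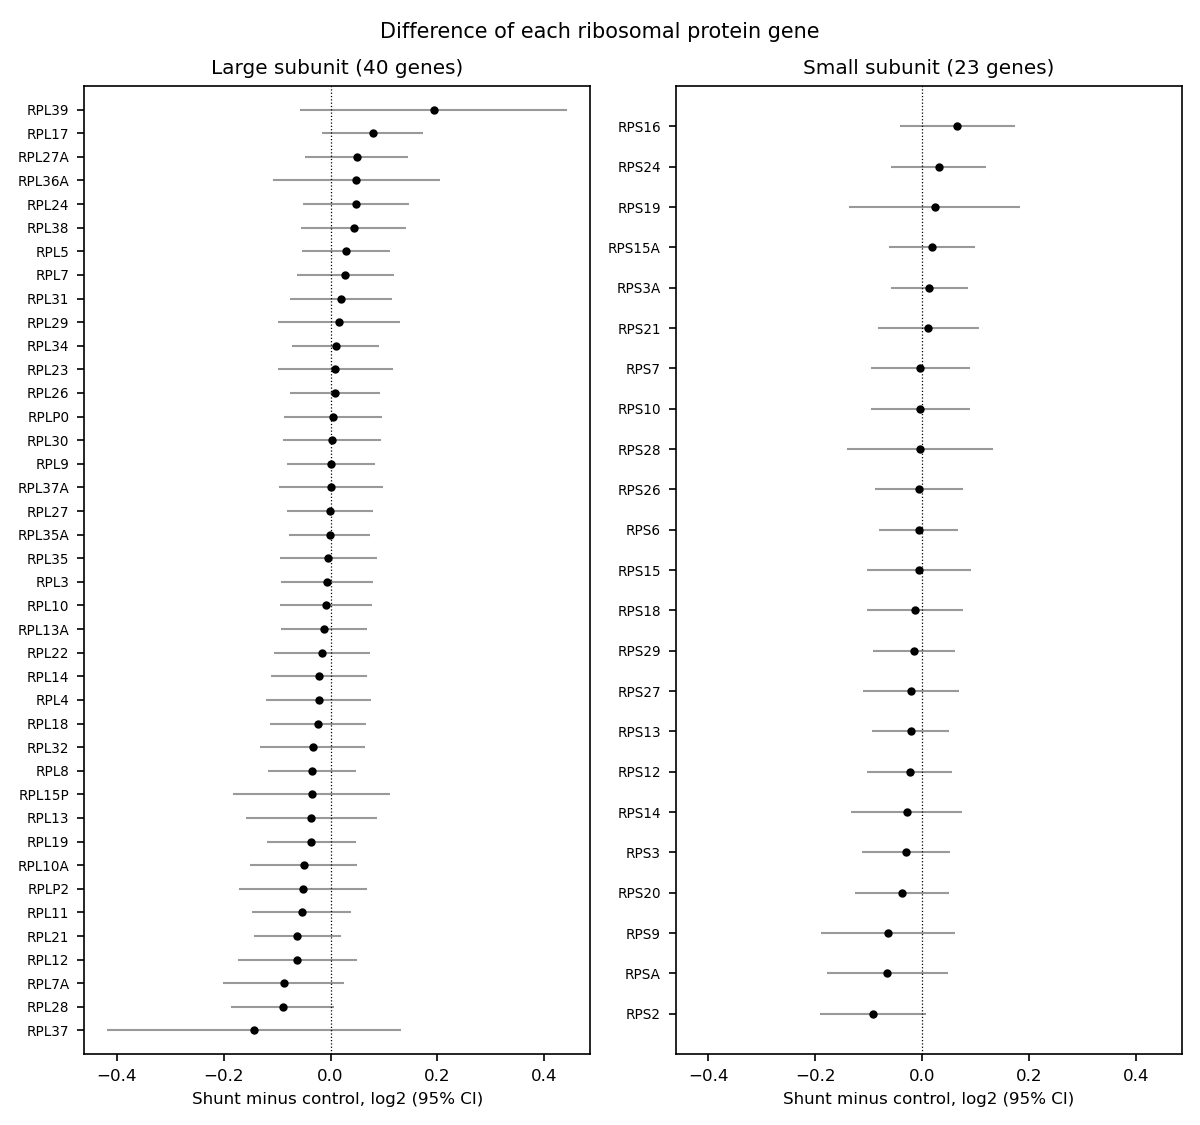
Difference in log2 signal, shunt minus control, for the 40 large subunit genes (left) and 23 small subunit genes (right), with points for the estimate and bars for the 95% interval of the limma fit (n = 8 lambs a group). The intervals of all 63 genes take in 0, and those of RPL39 and RPL37 are the widest.

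The sign of these small differences depended on the scaling. In the deposited values 23 of 63 were positive and 40 negative, with a median of -0.0066, beside a median of -0.014 over all genes and 0.023 over the brightest 10% of genes. After centring each array on its median 43 were positive and the median was 0.016. After cyclic loess, which fits away differences that move with signal, 8 were positive and the median was -0.050. In that run 6 of 63 members had an unadjusted limma p under 0.05, each lower in shunt, where 14.4% of all genes had one. In the deposited values large subunit genes had a median difference of -0.0056 (17 of 40 positive) and small subunit genes of -0.0066 (6 of 23 positive).

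Members vary little between lambs, and the limma test draws each gene's spread towards that of a typical gene. The median standard error of members was 0.044 with this step and 0.033 without it. An exact two-sided permutation of the lambs for each gene, over 12870 divisions and added after the data were seen, does not use this step. After adjustment over all genes it called 0 of all 9155 genes and so 0 members. It gave 4 of 63 members an unadjusted p under 0.05, 1 higher and 3 lower in shunt, where 14.7% of all genes had one. The 4 were RPL28 (exact p = 0.0199), RPL21 (exact p = 0.0208), RPS2 (exact p = 0.0224) and RPL17 (exact p = 0.0384), with adjusted exact permutation p from 0.256 to 0.314.

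In the large subunit, the stalk that recruits the elongation factors is formed by RPLP0, RPLP1 and RPLP2 with RPL12 at its base. RPLP0, which anchors the other stalk proteins, had a lowest value of 13.16, a median of 13.28 and a highest value of 13.31 in shunt lambs, against 13.15, 13.26 and 13.36 in control lambs. The shunt lambs thus lay inside the control range. The difference was 0.0040 ± 0.043 (SE, 95% interval -0.09 to 0.10), and further probe sets of RPLP0 were at -0.046 and -0.034. RPLP2 had 12.07, 12.18 and 12.29 in shunt lambs, against 12.02, 12.28 and 12.38 in control lambs (-0.051 ± 0.057). RPL12 had 13.09, 13.20 and 13.35 in shunt lambs, against 13.13, 13.28 and 13.40 in control lambs (-0.062 ± 0.053). Both overlapped between groups, and RPLP1 was not analysed here.

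RPL11, RPL5 and RPL23, which can bind MDM2, had differences of both signs. RPL11 had 13.13, 13.17 and 13.25 in shunt lambs, against 13.10, 13.22 and 13.36 in control lambs. Of the 8 shunt lambs 7 were below the control mean, inside the control range, and the difference was -0.054 ± 0.044 (SE, adjusted p = 0.587). RPL5 had 13.52, 13.57 and 13.60 in shunt lambs, against 13.46, 13.53 and 13.65 in control lambs. Here 7 of 8 shunt lambs were above the control mean, again inside the control range, and the difference was 0.029 ± 0.039 (SE, adjusted p = 0.757). RPL23 differed by 0.0090 ± 0.051. Among 13 measured p53 target genes, 6 had positive and 7 negative differences, with a median of -0.0025. Of these genes 3 had an unadjusted limma p under 0.05, each lower in shunt, where 14.5% of all genes had one. After adjustment over all genes 0 passed. SESN2, a target that restrains mTORC1, was at 7.98 ± 0.14 in shunt and 8.17 ± 0.07 in control lambs (SD, n = 8 each; adjusted p = 0.201).

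At the tunnel exit, where the new chain leaves the large subunit, 7 of 8 listed genes were measured. Differences were positive for 4 and negative for 3, with a median of 0.0086. An unadjusted limma p under 0.05 was reached by 0 of them and by 14.5% of all genes. RPL17 had 13.31, 13.42 and 13.46 in shunt lambs, against 13.18, 13.34 and 13.47 in control lambs. Of the 8 shunt lambs 7 were above the control mean, and the groups overlapped. The difference was 0.079 ± 0.045 (SE, adjusted p = 0.419), and without control replicate 6, the highest control lamb, its unadjusted p was under 0.05. RPL39, a very small protein in the wall of the tunnel, had 10.53, 10.96 and 11.25 in shunt lambs, against 10.33, 10.74 and 11.26 in control lambs. The ranges overlapped almost wholly, with 6 of 8 shunt lambs above the control mean, and the difference was 0.19 ± 0.12 (SE, adjusted p = 0.454), a 1.14-fold level. It was 0.27 without control replicate 5 and 0.13 without control replicate 7, and its unadjusted p was under 0.05 without control replicate 5 or shunt replicate 8. RPL19, also at the exit, had the lowest difference of the list (-0.036), and RPL31 was at 0.020. A second probe set of RPL19, with a mean of 7.97, was at 0.054.

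Among other large subunit proteins, RPL28 had 12.99, 13.01 and 13.11 in shunt lambs, against 12.98, 13.08 and 13.27 in control lambs. All 8 shunt lambs lay below the control mean, but control replicate 8 was lower than any of them. The difference was -0.090 ± 0.046 (SE, adjusted p = 0.371), a 0.940-fold level, with an unadjusted p under 0.05 in the fits without shunt replicate 4 or control replicate 8.

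RPL7A had 11.09, 11.22 and 11.30 in shunt lambs, against 11.14, 11.27 and 11.54 in control lambs, with 8 of 8 shunt lambs below the control mean and overlapping ranges. It differed by -0.087 ± 0.054 (SE, adjusted p = 0.455). RPL21 had 13.30, 13.38 and 13.45 in shunt lambs, against 13.39, 13.42 and 13.52 in control lambs, with 7 of 8 shunt lambs under the mean of the controls. It differed by -0.062 ± 0.039 (SE, adjusted p = 0.466), and its lambs were close together in both groups (SD 0.050 in shunt, 0.046 in control).

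RPL27A (0.049 ± 0.046), RPL24 (0.048 ± 0.047) and RPL38 (0.043 ± 0.047), also of the large subunit, had positive differences (SE, adjusted p from 0.639 to 0.690). RPL24 had a second probe set at -0.057. RPL38, known in mice for a part in the translation of Hox messages, had 12.82, 12.86 and 13.03 in shunt lambs, against 12.70, 12.87 and 12.94 in control lambs, so its shunt median was not above its control median.

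**Figure D2:**
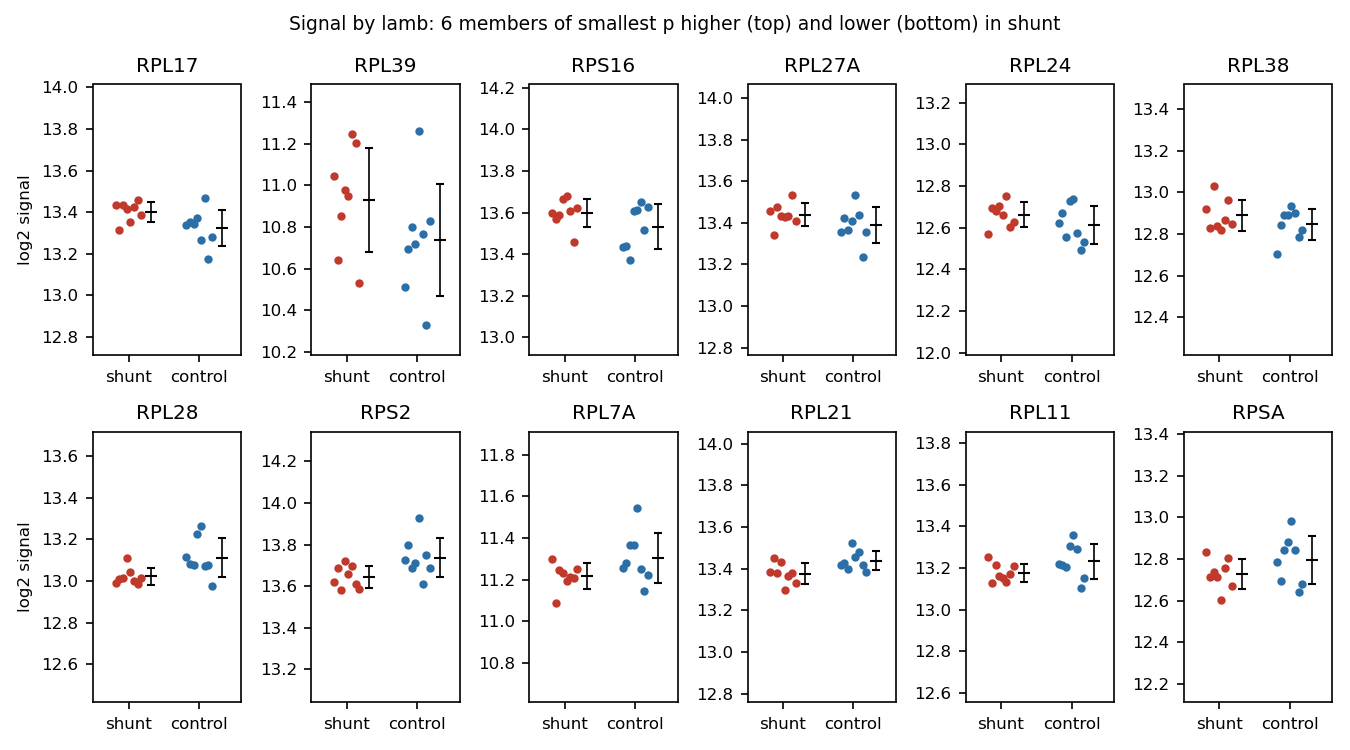
Log2 signal of each lamb (points, shunt left and control right) for the 6 members of smallest p with a positive difference (top) and the 6 with a negative one (bottom), with the mean and SD of each group (dash and bar, n = 8). Each panel spans the same length of scale, and the groups overlap in all 12 panels.

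In the small subunit, RPS2 lines the channel where the message enters. It had 13.58, 13.64 and 13.72 in shunt lambs, against 13.61, 13.72 and 13.93 in control lambs. All 8 shunt lambs were below the control mean, the groups overlapped, and control replicate 5 was highest. The difference was -0.092 ± 0.047 (SE, adjusted p = 0.373). RPS3, of the same entry channel, differed by -0.030 ± 0.039, while its further probe sets were at 0.063 and 0.054.

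RPS6, the subunit that S6 kinases phosphorylate when mTORC1 is active, had 13.48, 13.51 and 13.53 in shunt lambs, against 13.45, 13.51 and 13.55 in control lambs. The shunt lambs lay inside the control range, and the difference was -0.0066 ± 0.035 (SE, 95% interval -0.08 to 0.07). An RNA array carries no measure of its phosphorylation. RPSA, which is also known as the laminin receptor, had 12.60, 12.72 and 12.83 in shunt lambs, against 12.64, 12.81 and 12.98 in control lambs. Its groups overlapped, and it differed by -0.065 ± 0.054 (SE, adjusted p = 0.592).

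Of the 14 listed genes of the small subunit's head, which helps hold transfer RNA, 10 were measured. Differences were positive for 2 and negative for 8, with a median of -0.010. An unadjusted limma p under 0.05 was reached by 0 of them and by 14.5% of all genes. RPS16 had 13.46, 13.60 and 13.68 in shunt lambs, against 13.37, 13.56 and 13.65 in control lambs. Of the 8 shunt lambs 7 were above the control mean, with overlap, and the difference was 0.066 ± 0.051 (SE, adjusted p = 0.567). RPS20 (-0.037) and RPS12 (-0.023) were on the other side, while further probe sets of RPS12 were at 0.12, 0.0026 and -0.032.

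Of 18 genes mutated in Diamond-Blackfan anaemia 16 were measured, 5 with positive and 11 with negative differences. These ran from -0.054 to 0.031 with a median of -0.0032. An unadjusted limma p under 0.05 was reached by 0 of the 16 and by 14.5% of all genes. RPS24, on this list, had 13.15, 13.21 and 13.31 in shunt lambs, against 13.08, 13.19 and 13.28 in control lambs. RPS19, the gene most often mutated in that disease, was read from a dim probe set at percentile 22.7 of the genes, where signal over background is unknown. It had 6.63, 6.73 and 6.87 in shunt lambs, against 6.44, 6.71 and 7.15 in control lambs. Its shunt lambs lay inside the control range, whose top was control replicate 2, and it differed by 0.023 ± 0.076 (SE). The other probe set of RPS19, dimmer still at 4.55, was at -0.11 ± 0.054.

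The members X-linked in humans, also on the X chromosome in the sheep table, were RPL10, RPL36A and RPL39. RPL36A had 11.78, 12.13 and 12.21 in shunt lambs, against 11.80, 12.08 and 12.25 in control lambs. The groups overlapped almost wholly, with shunt replicate 2 far below the other shunt lambs, and the difference was 0.048 ± 0.074 (SE). RPL10, which joins the large subunit late in its assembly, differed by -0.0087 ± 0.041 and its other probe set by -0.049 ± 0.073. After centring on array medians RPL10 was at 0.014.

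In signal the members were crowded at the top of the arrays. Of the 63, 59 were in the brightest 10% of genes and 44 had a mean of 13 or more, where the highest value on any array was 14.47. The median member was at percentile 99.3. RPL37, RPS19 and RPS28 were the exceptions below 9, with means of 7.08, 6.74 and 8.74. Sheep RNA was read here on bovine probe sets, and the part of sequence mismatch in these low signals was not tested. RPS13 was the brightest member at 14.05, with SDs of only 0.018 in shunt and 0.022 in control. Of 58 other genes with a mean of 13 or more, 10.3% had an unadjusted p under 0.05, and the median size of their differences was 0.034.

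**Figure D3:**
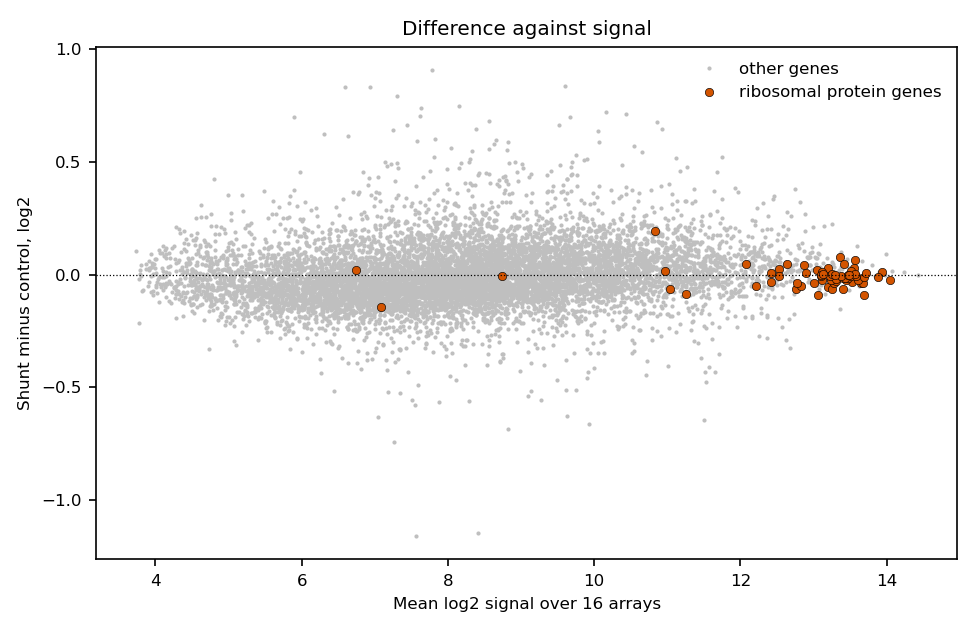
Difference in log2 signal, shunt minus control, against the mean log2 signal over 16 arrays, for the 63 ribosomal protein genes and 9092 other genes. Most members lie at the right end, 44 of them at 13 or more, close to 0.

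Mammalian genomes hold many processed copies of ribosomal protein genes, and such copies can share probes with the parent gene. Of the 63 probe sets used, 13 had a suffix by which the manufacturer marks shared probes. For 11 it was _a_at, which marks probes shared by transcripts of the same gene. Probes shared with other genes or likely to cross-hybridize were marked for 1 with _s_at (RPL10) and 1 with _x_at (RPLP0). For 16 members there were 24 further probe sets, of which 9 had the sign of the one used. Among all 87 probe sets 0 passed at an adjusted p under 0.05, where 0.0708% of all 24016 did, and 0 had an unadjusted p under 0.05, where 13.7% did. The further probe sets ranged from -0.13 to 0.13 in difference. Across the 16 arrays, with group means removed, they correlated with the one used at a median of 0.12 and from -0.55 to 0.92, and 17 of the 24 had means below 9. All probe sets of a gene were read from the same RNA samples on the same arrays, and whether they measure the same transcript was not tested.

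Members deviated together from lamb to lamb, most of all among controls. The deviation of each gene from its mean over 16 arrays had a median over the 63 members that ran among shunt lambs from -0.046 in replicate 2, where 13 of 63 were above their gene's mean, to 0.024 in replicate 3, with 45. In control lambs it was 0.096 in replicate 5, with 59 above, and 0.061 in replicate 4, with 54. It was -0.059 in control replicate 8, with 6 above, and -0.055 in control replicate 7, with 11. The mean of these medians was -0.0046 ± 0.025 in shunt and 0.0085 ± 0.055 in control lambs (SD, n = 8 each), and the ranges overlapped.

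Control replicate 5 also had the lowest 3' minus 5' difference, 0.71, and control replicate 2 the next, 0.74, with a member median of 0.0076. The part of RNA quality in these deviations was not tested. The large minus the small subunit's median deviation stayed between -0.036 and 0.019 in shunt and between -0.036 and 0.046 in control lambs.

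**Figure D4:**
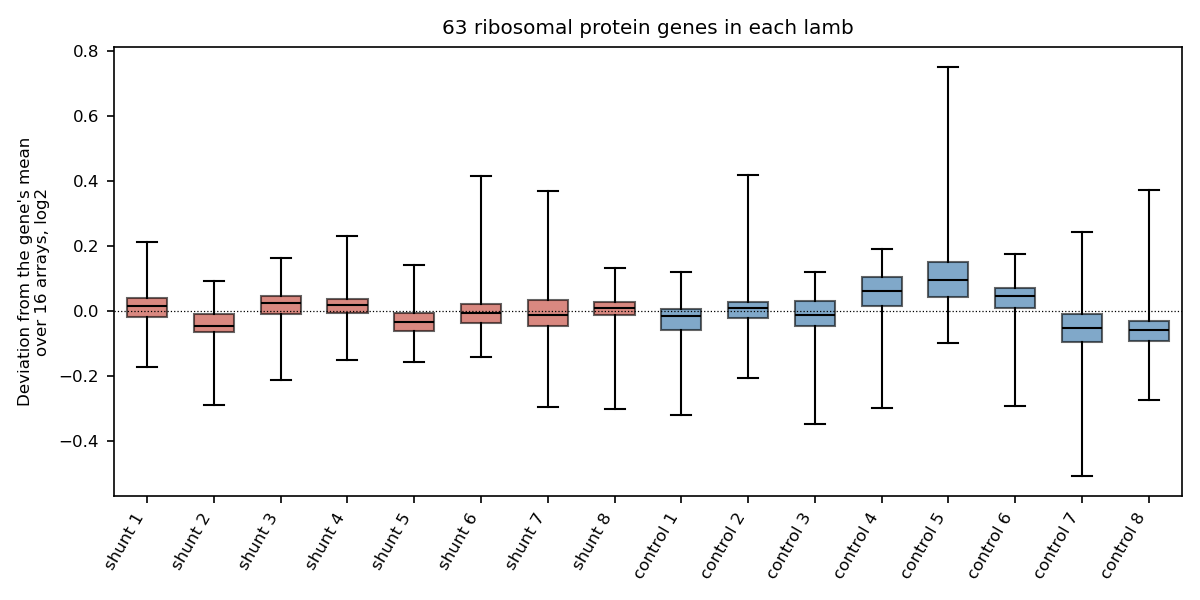
Deviation of each of the 63 ribosomal protein genes from its own mean over 16 arrays, in log2 signal, by lamb, shunt left and control right. Boxes give the median and quartiles and whiskers the lowest and highest member. The shunt medians stay between -0.046 and 0.024, while control replicates 4, 5 and 6 lie above 0 and control replicates 7 and 8 below.

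Over the 1953 pairs of members, the correlation between lambs with group means removed had a median of 0.41, and 88.0% of pairs were above 0. It was 0.42 within the large subunit, 0.39 within the small and 0.41 between them. For the 58 other genes with a mean of 13 or more the median was 0.086, for 67 mitochondrial ribosomal protein genes 0.29 and for 62 genes of ribosome assembly 0.38. Lists of cell type markers ran from 0.033 (T cells) to 0.78 (proliferation), with macrophages at 0.72 and fibroblasts at 0.71. All these pairs share 16 arrays, their normalization and their lambs, and are given as a description. The members' median was 0.29 after quantile normalization again, 0.45 after centring on array medians and 0.55 after cyclic loess. RPS21 (median with the other members 0.67), RPL14 (0.63) and RPL10A (0.63) went most with the rest. The dim RPS19 (-0.18), RPL37 (0.037) and RPS28 (0.049) went least, along with RPL3 (0.043) and RPS13 (0.093).

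The SD between lambs was smaller in shunt than in control for 54 of 63 members, beside 67.3% of all genes. It was also smaller in shunt for 74.1% of the 58 other genes with a mean of 13 or more, for 28 of 33 initiation factor genes and for 14 of 16 genes of RNA polymerase I. The median SD of members was 0.048 in shunt and 0.083 in control. For the 58 other bright genes it was 0.067 in shunt and 0.081 in control, and over all genes 0.13 in shunt and 0.16 in control. RPL29 (0.039 in shunt, 0.13 in control) and RPS18 (0.024 in shunt, 0.083 in control) were examples. With 1 array left out the count ran from 52, without control replicate 5 or 8, to 57. No test of the difference in spread was made. The 3' minus 5' difference and the array medians were also more spread in control lambs, and their part was not tested.

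**Figure D5:**
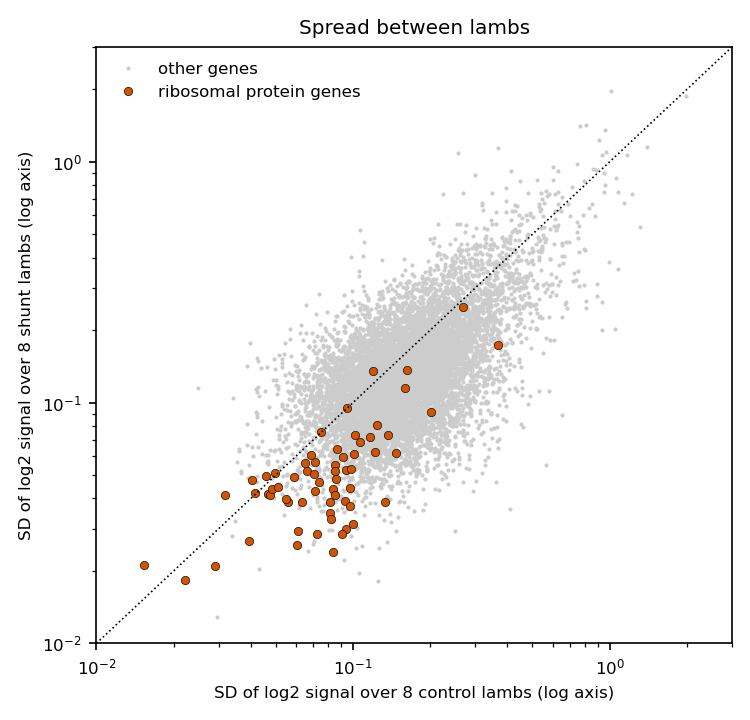
SD of log2 signal over 8 shunt lambs (vertical, log axis) against that over 8 control lambs (horizontal, log axis), for ribosomal protein genes and other genes, with a dotted line of equal spread. Of 63 members, 54 lie below the line.

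Among genes that work with the ribosome 0 passed over all genes (limma), where 8 of all 9155 genes did. For the counts at an unadjusted limma p under 0.05 that follow, the share of all genes was 14.5%. FAU and RACK1, ribosomal proteins under other names, differed by -0.052 ± 0.044 and 0.0056 ± 0.041. Among 5 genes with related names, paralogues with an L suffix and the binding protein RPS19BP1, 1 had an unadjusted p under 0.05. It was RPL7L1, at 5.77 ± 0.10 in shunt and 5.90 ± 0.10 in control lambs (SD). Of 9 genes of translation elongation, a list that also holds the kinase EEF2K and TPT1, which are not elongation factors, and of 33 initiation factor genes 0 had an unadjusted p under 0.05, with medians of 0.014 and 0.015. TPT1, whose message also starts with an oligopyrimidine tract, was at 14.04 ± 0.06 in shunt and 13.95 ± 0.08 in control lambs (SD, adjusted p = 0.364).

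A list of 18 other genes with such messages holds TPT1 and several elongation and initiation factors again. Of these 18 genes 2 had an unadjusted p under 0.05, where 14.5% of all genes had one. They were VIM (0.13 ± 0.051) and NAP1L1 (0.14 ± 0.061), both positive. Of 62 ribosome assembly genes 1 had such a p, MRTO4 (-0.14 ± 0.048), which helps form the stalk, and the median was 0.029. Of 16 genes of RNA polymerase I, which makes ribosomal RNA, 2 did, POLR1H (-0.17 ± 0.063) and POLR1G (-0.13 ± 0.059), and the median was 0.043, with 12 of 16 positive. Of 25 genes of mTORC1 and S6 kinase signalling 3 did, MYC and RPS6KA3 positive and SESN2 negative, with a median of -0.025. The list is a wide one, and neither MYC nor RPS6KA3 is a part of mTORC1. MYC, a transcription factor that drives ribosome production, was at 11.41 ± 0.39 in shunt and 10.95 ± 0.34 in control lambs (SD), a difference of 0.46 ± 0.16 (SE, adjusted p = 0.245). Of 67 mitochondrial ribosomal protein genes 1 was positive and 3 negative at an unadjusted p under 0.05, with a median of -0.00037.

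Of the cell type markers, 0 passed over all genes, where 8 of all 9155 genes did. An unadjusted limma p under 0.05 was reached by 14.5% of all genes, beside which the counts below stand. Of 16 proliferation markers 8 had an unadjusted p under 0.05, each higher in shunt, and their mean signal ran from 8.29 to 9.00 in shunt and from 7.82 to 8.84 in control lambs. For 13 endothelial markers it was 6, each higher (8.96 to 9.21 in shunt, 8.84 to 9.05 in control), and for 8 smooth muscle markers 4, each higher (9.94 to 10.25 in shunt, 9.69 to 10.22 in control). For 8 type 2 cell markers it was 3, each lower (10.10 to 10.55 in shunt, 10.30 to 10.62 in control). Of 8 erythroid markers it was 0 (7.42 to 7.93 in shunt, 7.02 to 8.26 in control). Markers of type 1 cells (3 of 6), airway cells (2 of 5), neutrophils (3 of 7), T cells (1 of 10) and B cells (1 of 4) were lower where such a p was reached. Those of fibroblasts (1 of 9) and macrophages (1 of 7) were higher where it was reached. Most differences went the other way in B cells (3 of 4 positive), fibroblasts (5 of 9 negative) and macrophages (5 of 7 negative). The ranges of the groups overlapped in each list, and the part of cell makeup in the ribosomal protein signals was not tested.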

How the data were processed

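Each probe set has 1 value per array, a log2 signal that the authors made with RMA, as the submitters' processing notes name it (version not given in the sources used here). RMA subtracts background, equalizes quantiles and combines probes. Without detection calls, signal over background is unknown. No batch was known, and array number limits the precision. Of 24128 probe sets, 112 manufacturer controls were left out, and the platform annotation gave 1 symbol to 13292 of the other 24016, several to 86 and none to 10638. The test was limma 3.58.1 (R 4.3.3; lmFit, eBayes, no covariate, two-sided, Benjamini-Hochberg over 9155 genes, threshold 0.05), checked on simulated data. An SE is that of the fit. Members and lists were chosen with earlier results of these data known. Named members were the 6 of smallest p in each direction, those with a lamb far from its group, and the stalk, MDM2-binding and X-linked groups with RPS6, RPSA and RPS19. Up to 4 genes of smallest p were named per list. RPL37, RPS28, RPS13, RPS21, RPL14, RPL10A, RPL3, RPL29, RPS18 and RPL15P were named after their values were seen. Alternatives were a replicate block, a filter on dim probe sets, other normalizations, array weights, other priors and probe set rules, a 3' minus 5' covariate, a threshold of 0.10, each array left out and, added later, exact permutation. The labels did not say whether replicate numbers pair lambs. Plots used matplotlib 3.10.9 (Python 3.11.15).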

Additional observations from a re-analysis of the deposited data

Results flagged for a closer look

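Among 134 sets of 8 values, 9 held a lamb that stood far off, measured as its distance from the next lamb divided by the whole spread (63 members and 4 measures per array, in either group). About 7 would come by chance. In shunt lambs, RPL36A was lowest in replicate 2 (11.78, next 12.04, ratio 0.603), and RPS26, a small subunit protein near the exit of the message, was highest in replicate 1 (12.63, next 12.52, ratio 0.754).

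The other 7 were in control lambs. Replicate 5 was highest for RPL4 (13.66, ratio 0.538) and RPS7 (13.31, ratio 0.690), and replicate 4 for RPL27 (13.58, ratio 0.605). Replicate 8 was lowest for RPL8 (13.57, ratio 0.649) and RPS3 (13.42, ratio 0.529), and replicate 7 for RPL34 (12.80, ratio 0.569). Replicate 2 was highest for the dim RPS19 (7.15, ratio 0.541).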

How the results depend on the processing

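At an adjusted p under 0.05, 0 members passed in every alternative run, and 0 at 0.10. Few of all 9155 genes passed at 0.05 either. They were 5 after quantiles again, 8 after centring and 5 after cyclic loess. With array weights they were 23, with the trended and robust prior 11 and by exact permutation 0. With the replicate number as a block 0 members and 0 of all genes passed. In that run 0 members had an unadjusted p under 0.05, where 12.6% of all genes had one. Same-numbered lambs had correlations of both signs, from -0.27 to 0.19 over 8 pairs. The causes of the following changes were not tested. Members at an unadjusted p under 0.05, 0 as reported, were 2 after normalizing by quantiles again, 1 after centring on array medians, 6 after cyclic loess, 1 with array weights, 3 with a trended and robust prior, 4 by exact permutation and 0 to 2 with 1 array left out. Of all genes 14.5% had such a p after quantiles again, 14.2% after centring and 14.4% after cyclic loess. The share was 16.6% with array weights, 14.4% with the trended and robust prior and 14.7% by exact permutation. Positive differences, 23 as reported, were 15 after quantiles again, 43 after centring, 8 after cyclic loess and 17 to 35 with 1 array left out (35 without control replicate 5). The median difference was -0.050 after cyclic loess. Signs turned in small differences. After quantiles again they were RPL34 -0.032, RPLP0 -0.0097, RPL23 -0.012 and RPL10 0.0071. After centring they were RPS26 0.018, RPL27 0.022, RPL4 0.00076, RPS7 0.020, RPS6 0.017 and RPL10 0.014. After cyclic loess they were RPL34 -0.033, RPLP0 -0.039, RPL5 -0.015 and RPL23 -0.032. With array weights they were RPS7 0.0053, RPLP0 -0.0096, RPL23 -0.013 and RPL10 0.0015. Averaging a gene's probe sets gave RPL24 -0.0047, RPS19 -0.041, RPS3 0.029, RPS7 0.0039 and RPLP0 -0.025. With the most variable or the dimmest probe set RPL24 was -0.057, RPS3 0.054 and RPLP0 -0.034, and with the dimmest RPS19 was -0.11 and RPS7 0.090. With the 3' minus 5' difference as a covariate RPS7 was 0.0030. With 1 array left out the ranges were -0.020 to 0.0043 for RPL10, -0.013 to 0.032 for RPL23, -0.011 to 0.012 for RPL27, -0.0051 to 0.022 for RPL34, -0.036 to 0.0080 for RPL4, -0.011 to 0.019 for RPLP0, -0.018 to 0.085 for RPS19, -0.020 to 0.0016 for RPS26 and -0.013 to 0.025 for RPS7. Members with an interval within 1.2-fold were 57 to 61. The 3 dim members have an unknown signal over background, and the array gives no absolute amount.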
